A study of Homo sapiens and Canis lupus familiaris with 27 samples.

Results

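Described here are 10 genes grouped as replication-coupled chromatin and DNA methylation factors, in prostate carcinoma cells exposed to the microtubule-depolymerizing indolylmaleimide PDA-66. They are DNMT1, UHRF1 and HELLS, which maintain DNA methylation, SUV39H1 and SUV39H2, which methylate histone H3 at lysine 9 (H3K9), EZH2, which methylates it at lysine 27 (H3K27), the histone chaperones CHAF1A, CHAF1B and ASF1B, and ATAD2, a bromodomain protein. The genes were chosen by name and looked up in the gene count tables of 3 cell lines. All 10 were found among the 23708 genes listed for PC-3 and for LNCaP, and 9 among the 16028 genes listed for CT1258, while ASF1B of CT1258 was not analysed here. Each member that was found had enough reads to be tested, the genes tested being 13777 for PC-3, 13156 for LNCaP and 9886 for CT1258.

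Behind a replication fork, DNA methylation remains on the parental strand only, and nucleosomes have to be rebuilt from parental and newly made histones. UHRF1 binds such hemimethylated DNA and recruits DNMT1, which methylates the new strand, while chaperones deliver histones H3 and H4 and the histone methyltransferases restore repressive marks. Several of these genes are transcribed with the cell cycle, and EZH2 is known for its high level in advanced prostate carcinoma.

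PC-3 and LNCaP are human prostate carcinoma cell lines, derived from a bone metastasis and a lymph node metastasis, and CT1258 is a canine prostate carcinoma cell line. PDA-66 was given at 15 μM, with exposures of 12 h and 24 h, and controls received the vehicle, 0.15% DMSO, with 24 h as the only time on the labels of the controls. Of 27 samples, 26 had counts here, which gave 3 replicates per group and 2 in the PC-3 DMSO group. Since each line had a single set of DMSO samples, the comparisons at 12 h and 24 h share controls, from which the 12 h groups also differ in time in culture. Each line had its own culture medium, so that cell line and medium cannot be told apart between lines, nor species or read aligner between CT1258 and the others. The replicates were biological ones prepared independently, per the study's methods. These are bulk samples, in which a change in the share of cells in a given cycle phase and a change in RNA per cell cannot be told apart.

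Total counts per sample were 14650839 to 18091755 for PC-3 and 11923105 to 14741883 for LNCaP. The CT1258 totals were 19909616 to 20976950 for DMSO but 7203534 to 8325867 for PDA-66. The lowest count of any member in any sample was 102, in LNCaP. All 4 epithelial markers examined were detected in PC-3 and LNCaP samples, and KLK3, which encodes prostate-specific antigen, was at 23.7 to 68.2 normalised counts (CPM, read counts scaled to a common library size) in LNCaP and at most 0.0592 CPM in PC-3. In CT1258, EPCAM was the only epithelial marker listed and was near 0, at most 0.262 CPM. Of the luminal markers, TMPRSS2 was at 0 in every sample. FOLH1 was at 2.84 to 5.7 CPM, and KLK2, at most 10.8 CPM, was called lower at 12 h (adjusted p = 0.000313). The summed level of 8 markers of blood, vessel and muscle cells was 117.8 to 154.8 CPM in PC-3 DMSO samples against 77.1 to 83.0 CPM after 12 h, most of it CD68, and 38.7 to 55.1 against 19.7 to 32.4 CPM in LNCaP. In CT1258, 5 of those markers were listed and summed to 9.44 to 9.65 CPM in DMSO and 8.26 to 11.4 CPM after 12 h. The epithelial markers of PC-3 summed to 516.9 to 576.3 CPM in DMSO and 333.6 to 371.4 CPM after 12 h, where CDH1 (log2 fold change -2.44 ± 0.32) and KRT18 (-1.06 ± 0.11) fell. The part of these shifts in the results on the 10 genes was not tested.

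The LNCaP PDA-66 12 h replicate 2 stood apart from the other libraries. Its log2 CPM minus the mean of the other 2 replicates had an SD of 0.91 over genes, against 0.2 to 0.56 for the other 16 human samples, and correlated across genes with the G+C content of the transcript (Spearman's rho 0.77, against -0.8 to 0.69 in the others, a description over genes, which are not independent replicates). Among the members, CHAF1A was 1.61, SUV39H1 1.39, UHRF1 1.33, CHAF1B 0.79 and DNMT1 0.28 above the other replicates on the log2 scale, and their transcripts hold 48.6 to 57.7% G+C. ATAD2, HELLS, SUV39H2, EZH2 and ASF1B lay 0.14 to 0.76 below them, with 38.4 to 56.3% G+C, ASF1B having the highest. The part of base composition in these differences was not tested, and the LNCaP results on the members are given with and without this library.

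**Figure D1:**
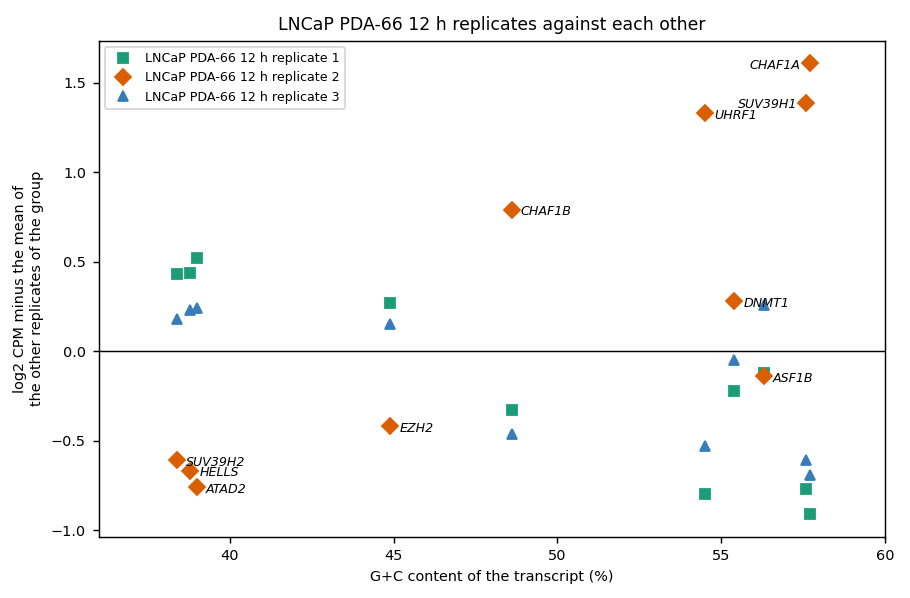
Each point is a member in 1 of the LNCaP PDA-66 12 h replicates, with the G+C content of its transcript (%) on the x axis and its log2 CPM minus the mean of the other replicates of the group on the y axis. Replicate 2 runs from -0.76 for ATAD2 to 1.61 for CHAF1A, and its members of high G+C content lie above the other replicates, apart from ASF1B.

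In the DMSO controls the order of the members differed between the human cell lines. Per kilobase of transcript, which allows genes to be compared, ASF1B at 45.3 CPM per kb (44.3 to 46.2, n = 2) and DNMT1 at 41.3 (37 to 45.6) were the most abundant members in PC-3, with overlapping ranges. ATAD2, EZH2, CHAF1A, SUV39H1, UHRF1, HELLS, CHAF1B and SUV39H2 followed, from 20.8 down to 3.84 CPM per kb, and of these neighbours ATAD2 overlapped EZH2 and SUV39H1 overlapped UHRF1. In LNCaP, ATAD2 at 26.5 CPM per kb (18.1 to 31.2, n = 3) and DNMT1 at 25.9 (22 to 31.7) led, followed by EZH2, CHAF1A, ASF1B, SUV39H2, CHAF1B, UHRF1 and HELLS, and SUV39H1 was lowest at 3.80 (2.88 to 4.53). Among neighbours in that order, only SUV39H2 and CHAF1B did not overlap. No gene models of the canine build were used, so the canine members were not ordered.

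The controls were then compared gene by gene between the human lines, with the edgeR quasi-likelihood F test and Benjamini-Hochberg adjustment over 15018 genes. At an adjusted p-value under 0.001, 4 of the 10 members differed, where 40.8% of all genes did, so the share is at the background. ASF1B was 4.01-fold higher in PC-3 than in LNCaP (log2 difference 2.00 ± 0.20 SE, adjusted p = 1.19e-07), SUV39H1 3.03-fold (1.60 ± 0.31, 0.00027) and DNMT1 1.62-fold (0.70 ± 0.15, 0.000787). SUV39H2 was lower in PC-3, by a log2 difference of -1.01 ± 0.19 (adjusted p = 0.000243). The call of DNMT1 was lost in 13 of 17 fits that left out 1 sample, that of SUV39H1 in 4 and that of SUV39H2 in 3, with adjusted p-values up to 0.0196, 0.0038 and 0.00531. The DNMT1 call was kept only without PC-3 DMSO replicate 3, LNCaP DMSO replicate 1 or LNCaP PDA-66 12 h replicate 1 or 2. That of SUV39H1 was lost without either PC-3 DMSO sample or LNCaP DMSO replicate 2 or 3, that of SUV39H2 without either PC-3 DMSO sample or LNCaP DMSO replicate 1, and that of ASF1B was kept in all 17. Without the LNCaP PDA-66 12 h replicate 2, UHRF1 was also called (log2 difference 0.90 ± 0.16, adjusted p = 3.55e-05), which made 5 members against 56.9% of genes.

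Exposure to PDA-66 was followed by higher levels of nearly the whole group in PC-3 and CT1258. In PC-3, 9 of 10 members rose after 12 h, beside 13% of all tested genes called higher, and 9 of 10 after 24 h, beside 8.88%. In CT1258, 8 of 9 rose after 12 h, beside 22.2%, and 6 of 9 after 24 h, beside 16.6%. No member was called lower than DMSO in any line. The median log2 fold change of the members was 1.00 and 0.93 in PC-3 and 0.96 and 0.53 in CT1258, at 12 h and 24 h, where the median over all tested genes was between -0.01 and 0.

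In LNCaP the spread between replicates was larger, with a common biological coefficient of variation of 0.24 against 0.0971 in PC-3 and 0.1 in CT1258. At the same threshold edgeR called 0 of 10 members at 12 h and at 24 h, and 0% of all genes higher. The medians of the members were nonetheless 1.48 and 1.23, where those over all tested genes were 0.03 and -0.01. All 10 fold changes were above 0 at both times, for which the share over all genes is not given here. An unadjusted p-value under 0.05 was found for 10 and 9 members, beside 3950 and 2599 of 13156 genes. At an adjusted p-value under 0.05, 9 members passed at 12 h, beside 4.52% of genes called higher, and 5 at 24 h, beside 1.35%. Without the 12 h replicate 2, 7 of 10 members rose at 12 h at the 0.001 threshold (median of the members 1.28), beside 1.21% of genes, and 4 of 10 at 24 h (median 1.23), beside 0.405%. At 0.001, with all samples, the DESeq2 Wald test and the edgeR likelihood ratio test each called 7 and 4 members. The share of all genes that these tests call is not given here, so those counts have no background beside them.

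The groups separated by sample as well. All 10 members were higher in every PDA-66 sample than in every DMSO sample of PC-3 at both times, beside 35.5% of all genes at 12 h and 30.6% at 24 h. The count was 9 of 9 at 12 h and 8 of 9 at 24 h in CT1258, beside 36.1% and 33.1%. It was 9 of 10 and 10 of 10 in LNCaP, beside 13.5% and 23.1%, and without the 12 h replicate 2 it was 10 of 10 at 12 h, beside 24.7%.

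**Figure D2:**
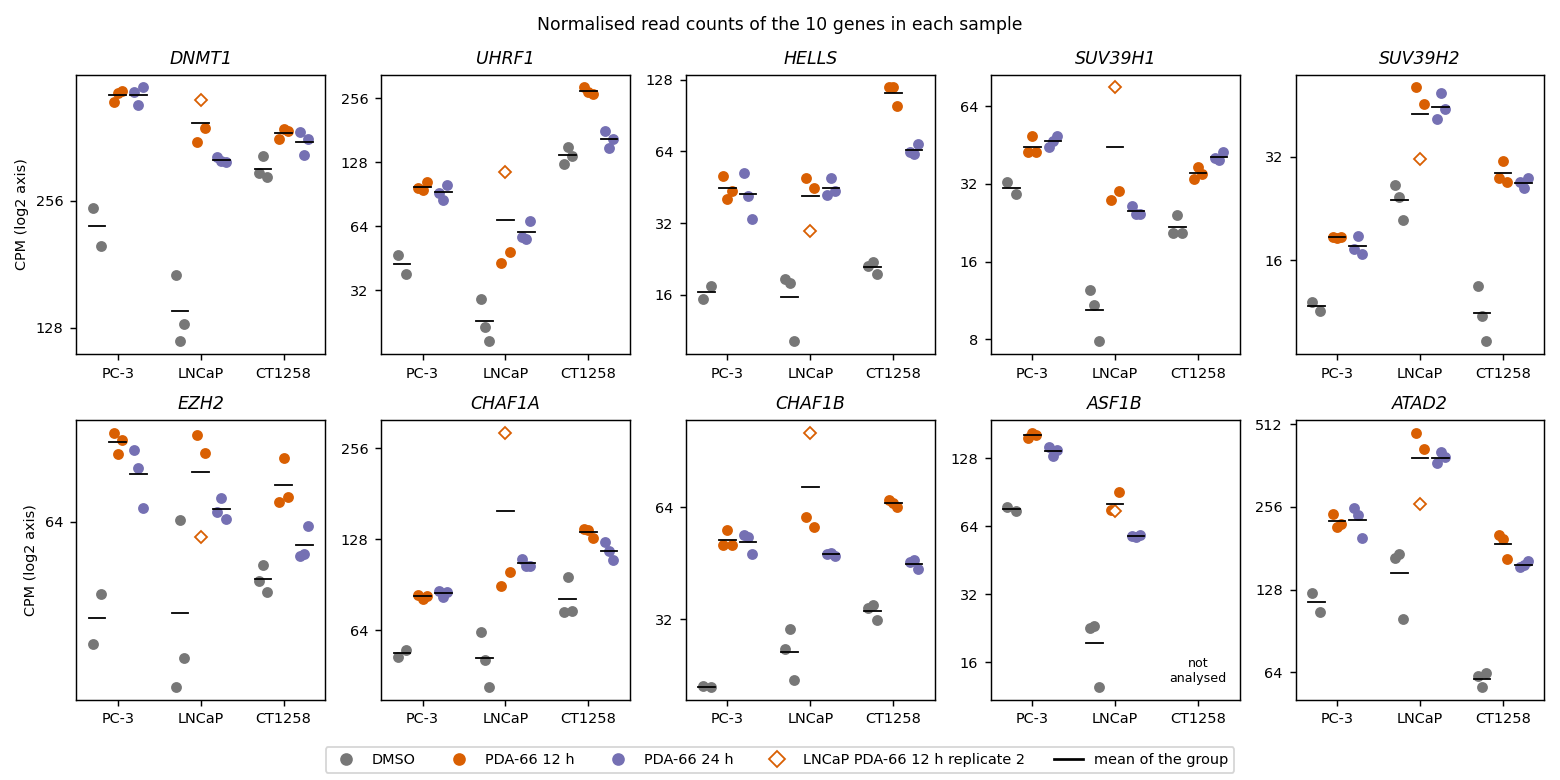
Normalised read count (CPM, log2 axis) of each member in each of the 26 samples, with the DMSO, 12 h and 24 h groups side by side for PC-3, LNCaP and CT1258. Bars mark group means, and the open diamond is the LNCaP PDA-66 12 h replicate 2, which at 287.8 CPM of CHAF1A and 114.7 CPM of UHRF1 lies far above the other replicates of its group.

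DNMT1, the maintenance methyltransferase, is at chr19:10244018-10341962 (minus strand, GRCh37). In PC-3 it was at 246.7 and 200 CPM in DMSO, at 438.0, 461.7 and 465.9 CPM after 12 h and at 464.2, 431.7 and 475.8 CPM after 24 h. Each treated sample lay above both controls, and the level rose 2.04-fold at 12 h (log2 fold change 1.03 ± 0.11 SE, adjusted p = 4.93e-06) and 2.05-fold at 24 h (1.03 ± 0.11, 8.6e-06). In LNCaP the values were 171.2, 119.0 and 130.5 CPM in DMSO, 352.2, 443.9 and 381.0 CPM at 12 h and 324.4, 318.2 and 317.0 CPM at 24 h. These groups did not overlap either, and the log2 fold changes of 1.48 ± 0.17 (adjusted p = 0.0049) and 1.19 ± 0.17 (0.0177) became 1.39 ± 0.14 (0.000391) and 1.19 ± 0.13 (0.000522) without the 12 h replicate 2, past the threshold.

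CT1258 gave the smallest fold changes of DNMT1. Its samples were at 297.7, 326.8 and 291.1 CPM in DMSO, 358.6, 379.6 and 374.4 CPM at 12 h and 373.1, 328.1 and 358.8 CPM at 24 h. The ranges did not overlap, but the log2 fold changes of 0.28 ± 0.081 (adjusted p = 0.00687) and 0.21 ± 0.081 (0.0354) did not pass the threshold. At 12 h it passed without CT1258 DMSO replicate 2, with an adjusted p-value of 0.000174.

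UHRF1, the reader of hemimethylated DNA, lies at chr19:4903092-4962165 (plus strand). It rose 2.31-fold in PC-3 at 12 h (log2 fold change 1.21 ± 0.12, adjusted p = 2.34e-06) and 2.17-fold at 24 h (1.12 ± 0.12, 8.16e-06), from 46.9 and 38.0 CPM to between 85.1 and 102.8 CPM in the 6 treated samples. In LNCaP the DMSO samples were at 29.2, 21.5 and 18.4 CPM, the 12 h samples at 42.8, 114.7 and 48.6 CPM and the 24 h samples at 56.6, 55.6 and 67.4 CPM. Replicate 2 at 12 h thus had more than the other treated samples of the line, and without it the log2 fold change at 12 h was 0.99 ± 0.18 (adjusted p = 0.00318) in place of 1.57 ± 0.36 (0.0285). At 24 h it was 1.38 ± 0.36 (adjusted p = 0.0737) with and 1.38 ± 0.16 (0.000781) without that library.

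In CT1258, UHRF1 was higher at 12 h. It was at 126.0, 150.9 and 137.2 CPM in DMSO, 288.0, 273.2 and 268.8 CPM at 12 h and 179.2, 148.5 and 164.8 CPM at 24 h. The rise at 12 h was 2.00-fold (log2 fold change 1.00 ± 0.092, adjusted p = 4.98e-07), and at 24 h the samples overlapped the controls, with a log2 fold change of 0.25 ± 0.092 (adjusted p = 0.0294).

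HELLS, an SNF2-family helicase needed for DNA methylation of repeats, is at chr10:96305086-96373662 (plus strand). It had the largest log2 fold change of the members in PC-3 at both times and in CT1258 at both times. In CT1258 it was at 21.2, 21.9 and 19.5 CPM in DMSO, 119.1, 119.0 and 99.3 CPM at 12 h and 63.7, 62.6 and 68.5 CPM at 24 h. The 3 groups did not overlap, and the level rose 5.39-fold at 12 h (log2 fold change 2.43 ± 0.10, adjusted p = 1.16e-09) and 3.11-fold at 24 h (1.64 ± 0.10, 2.59e-08). In PC-3 it rose from 15.3 and 17.4 CPM to 50.5, 40.4 and 43.8 CPM at 12 h, by 2.75-fold (adjusted p = 1.5e-05), and to 51.9, 41.7 and 33.2 CPM at 24 h, by 2.59-fold (3.99e-05). In LNCaP the log2 fold changes were 1.40 ± 0.27 (adjusted p = 0.016) and 1.52 ± 0.27 (0.0278), and 1.60 ± 0.21 (0.000858, called) and 1.53 ± 0.19 (0.00102) without the 12 h replicate 2.

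HELLS and UHRF1 were the members whose 250 bases before a RefSeq start hold a word of the E2F site, which is why these windows are shown. RefSeq starts of the table for GRCh38.p14 were given for 9 members, ATAD2 being the other, and their 13 windows were matched to GRCh37. The words searched on both strands were TTTCCCGC, TTTCGCGC, TTTGCCGC and TTTGGCGC, and 3.4% of all 27305 genes with such windows hold a word. Each stretch below is 30 bases of the plus strand, 5′ to 3′, with the word, or its reverse complement, in capitals, the first base of which is 76 and 8 bases before the HELLS start and 14 and 160 bases before 2 UHRF1 starts.
HELLS, chr10:96305458-96305487: aaccgcaagctGCGCCAAAtctcgcgcagc
HELLS, chr10:96305515-96305544: aggtatcgcgagatgacaggatTTTCCCGC
UHRF1, chr19:4909483-4909512: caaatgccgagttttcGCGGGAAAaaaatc
UHRF1, chr19:4909985-4910014: cccgagcccgaTTTCGCGCgccctgagttc
Since GENCODE has transcripts of both genes that start further upstream, the first 3 stretches lie in annotated exons and the last in an intron. The CCAAT box (CCAAT, both strands) was found for 6 of the 9 members (UHRF1, EZH2, SUV39H1, CHAF1A, ASF1B and HELLS), against 37.0% of genes, and the CHR element (TTTGAA or TTCGAA) for ASF1B alone, against 17.2%. These are matches of letters and not measured sites.

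The H3K9 methyltransferases SUV39H1 (chrX:48553945-48567407, plus strand) and SUV39H2 (chr10:14920819-14946314, plus strand) are paralogs that write the marks of constitutive heterochromatin. In LNCaP, SUV39H1 was at 12.4, 10.9 and 7.87 CPM in DMSO, at 27.8, 75.8 and 30 CPM at 12 h and at 26.3, 24.4 and 24.5 CPM at 24 h. All treated samples lay above the controls, and the 12 h replicate 2 lay far above the rest. The log2 fold change at 12 h was 2.10 ± 0.38 (adjusted p = 0.0131) with and 1.48 ± 0.17 (0.000509, called) without that replicate, and at 24 h 1.27 ± 0.37 (0.0954) with and 1.27 ± 0.15 (0.000825, called) without it.

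In PC-3, SUV39H1 had the smallest response of the members at 12 h, with 32.6 and 29.2 CPM in DMSO and 42.4, 48.9 and 42.6 CPM after PDA-66. Its log2 fold change of 0.53 ± 0.11 (adjusted p = 0.00117) did not pass the threshold, and passed it without PC-3 DMSO replicate 2 (0.000801). At 24 h it rose 1.52-fold (0.60 ± 0.11, adjusted p = 0.000632), a call lost in 6 of 8 fits that left out 1 sample, all but those without DMSO replicate 2 or 1 of the 12 h samples, with adjusted p-values up to 0.00363. In CT1258 it rose 1.61-fold at 12 h (0.68 ± 0.10, adjusted p = 4.14e-05) and 1.87-fold at 24 h (0.90 ± 0.10, 5.58e-06), from 20.6 to 24.3 CPM in DMSO to 33.4 to 42.5 CPM. A lncRNA gene on the opposite strand overlaps 25.0% of its transcript, and whether counting used the strand is not given in the sources used here.

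SUV39H2 had its largest fold changes in CT1258, from 13.5, 11 and 9.29 CPM in DMSO to 27.8, 31.2 and 27.0 CPM at 12 h and 27, 26 and 27.8 CPM at 24 h. This was 2.54-fold (log2 fold change 1.35 ± 0.13, adjusted p = 1.01e-06) and 2.39-fold (1.25 ± 0.13, 3.63e-06). In PC-3 it was at 12.1 and 11.4 CPM in DMSO and at 16.7 to 18.8 CPM in the 6 treated samples, rose 1.59-fold at 12 h (0.67 ± 0.12, adjusted p = 0.000357) and did not pass at 24 h (0.58 ± 0.12, 0.00135). The 12 h call was lost in 4 of 8 fits that left out 1 sample, those without PC-3 DMSO replicate 3 or any of the 12 h samples, with adjusted p-values up to 0.00225. In LNCaP it gave 0.83 ± 0.20 (adjusted p = 0.0354) and 0.90 ± 0.20 (0.0489), and without the 12 h replicate 2 1.01 ± 0.13 (0.000863, called) and 0.90 ± 0.12 (0.00132).

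EZH2, the catalytic subunit of Polycomb repressive complex 2 (chr7:148504349-148581413, minus strand), had among the smallest responses. In PC-3 it rose 1.74-fold at 12 h (log2 fold change 0.80 ± 0.11, adjusted p = 5.24e-05) and 1.57-fold at 24 h (0.65 ± 0.11, 0.000371), from 43.6 and 51.0 CPM to between 66.8 and 84.5 CPM. The 24 h call was lost in 4 of 8 fits that left out 1 sample, those without PC-3 DMSO replicate 2, PDA-66 12 h replicate 3, or PDA-66 24 h replicate 1 or 2, with adjusted p-values up to 0.00248. In CT1258 it rose 1.34-fold at 12 h, from 51.3 to 55.8 CPM to 68.1 to 78.2 CPM (0.43 ± 0.090, adjusted p = 0.000767). This call was lost in 8 of 9 fits, all but that without DMSO replicate 2, with adjusted p-values up to 0.00827, and at 24 h the value was 0.16 ± 0.091 (0.151).

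LNCaP was the line in which EZH2 samples overlapped between DMSO and 12 h. DMSO samples were at 38.1, 64.4 and 41.8 CPM, the 12 h samples at 84.1, 61.0 and 79.3 CPM and the 24 h samples at 66.0, 68.9 and 64.6 CPM. The log2 fold changes were 0.64 ± 0.22 (adjusted p = 0.0958) and 0.47 ± 0.22 (0.276), and 0.77 ± 0.18 (0.0116) and 0.47 ± 0.17 (0.0575) without the 12 h replicate 2.

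CHAF1A (chr19:4402637-4445015, plus strand) and CHAF1B (chr21:37757690-37791313, plus strand) encode the large and the middle subunit of chromatin assembly factor 1, which loads histones H3 and H4 onto replicated DNA. CHAF1B in PC-3 was at 21.1 and 21.0 CPM in DMSO, at 50.6, 55.4 and 50.6 CPM at 12 h and at 53.9, 53.1 and 48.0 CPM at 24 h. It rose 2.48-fold (log2 fold change 1.31 ± 0.11, adjusted p = 5.47e-07) and 2.46-fold (1.30 ± 0.11, 1.39e-06). CHAF1A rose less there, 1.54-fold (0.63 ± 0.091, adjusted p = 7.18e-05) and 1.58-fold (0.66 ± 0.091, 7.09e-05), from 52.3 and 55.0 CPM to between 81.5 and 86.6 CPM. In all 8 fits that left out 1 sample these calls were kept.

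In CT1258, CHAF1B was at 34.3, 35 and 31.8 CPM in DMSO, 66.7, 65.8 and 63.9 CPM at 12 h and 45.5, 46.0 and 43.7 CPM at 24 h. It rose 1.94-fold at 12 h (log2 fold change 0.96 ± 0.087, adjusted p = 4.28e-07) and 1.34-fold at 24 h (0.42 ± 0.088, 0.000907). CHAF1A rose 1.66-fold at 12 h (0.73 ± 0.11, adjusted p = 2.92e-05) and 1.44-fold at 24 h (0.53 ± 0.11, 0.000651), from 73.6 to 96.2 CPM to 109.3 to 138.5 CPM. Both 24 h calls were lost in 8 of 9 fits that left out 1 sample, all but that without DMSO replicate 2, with adjusted p-values up to 0.00512 for CHAF1A and 0.00623 for CHAF1B, and both were lost when the controls were thinned to the depth of the treated samples.

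In LNCaP, CHAF1A showed how far 1 library can move a value. It was at 63.0, 50.9 and 41.5 CPM in DMSO, at 89.7, 287.8 and 99.4 CPM at 12 h and at 110.1, 104.6 and 104.8 CPM at 24 h. With the 12 h replicate 2 the log2 fold change at 12 h was 1.62 ± 0.41 (adjusted p = 0.0385), and without it 0.87 ± 0.15 (0.00261). At 24 h it was 1.04 ± 0.40 (0.184) with and 1.04 ± 0.14 (0.00126) without that library. CHAF1B gave 1.47 ± 0.24 (0.00948) at 12 h and 0.87 ± 0.24 (0.0811) at 24 h, and 1.16 ± 0.13 (0.000509, called) and 0.87 ± 0.12 (0.00135) without it.

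ASF1B (chr19:14230324-14247425, minus strand), which hands histones to chromatin assembly factor 1, was measured in the human lines. In PC-3 it was at 78.1 and 74.8 CPM in DMSO, 157.5, 165.7 and 162.4 CPM at 12 h and 143.7, 131.7 and 139.2 CPM at 24 h. The rise was 2.12-fold (log2 fold change 1.08 ± 0.093, adjusted p = 7.8e-07) and 1.81-fold (0.85 ± 0.092, 1.07e-05). In LNCaP it was at 22.6, 23.2 and 12.4 CPM in DMSO, 75.9, 75 and 90.5 CPM at 12 h and 58.2, 57.3 and 58.4 CPM at 24 h. Replicate 2 at 12 h lay with the others here, and the log2 fold changes were 2.05 ± 0.24 (0.0049) and 1.58 ± 0.23 (0.0186) with it and 2.10 ± 0.21 (0.000391, called) and 1.58 ± 0.19 (0.000901, called) without it.

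ATAD2, a bromodomain ATPase that binds acetylated histones on newly assembled chromatin (chr8:124332090-124428590, minus strand), rose in PC-3 and CT1258. In CT1258 it was at 61.9, 56.6 and 63.7 CPM in DMSO, 201.8, 195.8 and 166.0 CPM at 12 h and 154.2, 157.5 and 162.2 CPM at 24 h, a rise of 3.09-fold (log2 fold change 1.63 ± 0.091, adjusted p = 6.82e-09) and 2.60-fold (1.38 ± 0.091, 4.47e-08). In PC-3 it rose 1.97-fold (0.98 ± 0.12, adjusted p = 2.07e-05) and 1.99-fold (1.00 ± 0.12, 2.9e-05), from 124.2 and 106.1 CPM to between 197.5 and 252.8 CPM. In LNCaP the values were 167.6, 173.3 and 100.3 CPM in DMSO, 475.8, 262.8 and 417.0 CPM at 12 h and 368.7, 405.3 and 387.8 CPM at 24 h. The groups did not overlap, and the log2 fold changes were 1.39 ± 0.26 (0.0151) and 1.40 ± 0.26 (0.0313), and 1.61 ± 0.19 (0.000633, called) and 1.40 ± 0.18 (0.00102) without the 12 h replicate 2.

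**Figure D3:**
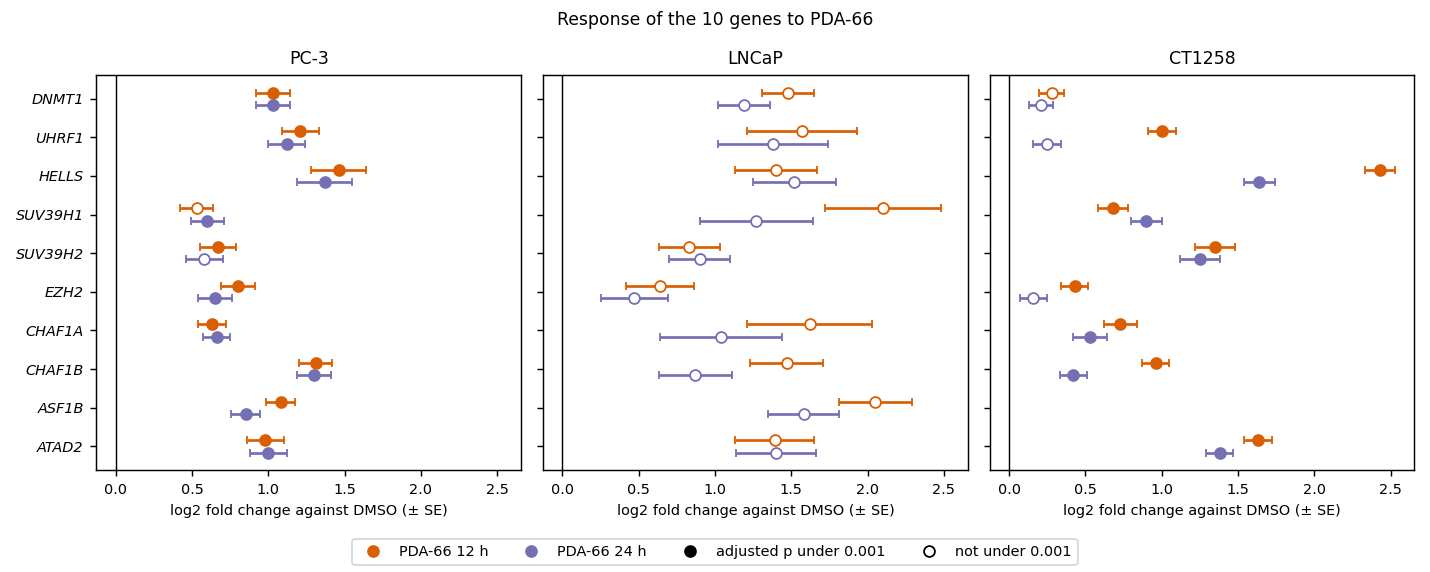
Log2 fold change against DMSO (x axis, ± SE) of each member at 12 h and 24 h in PC-3, LNCaP and CT1258, from the edgeR fit of each line. Filled points have an adjusted p-value under 0.001, which holds for 9 and 9 members in PC-3 and 8 and 6 in CT1258 but for none in LNCaP, where the bars are wider.

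The 24 h groups were also compared with the 12 h groups, which needs no control. In PC-3, 0 of 10 members differed, beside 1.41% of all genes, with log2 differences between -0.23 (ASF1B, unadjusted p = 0.0131) and 0.07. ASF1B was the only member with an unadjusted p-value under 0.05, beside 3377 of 13777 genes. In CT1258, 2 of 9 members were lower at 24 h than at 12 h, beside 1.28% of genes. HELLS fell by 0.79 ± 0.097 on the log2 scale (adjusted p = 0.00015) and UHRF1 by 0.75 ± 0.093 (0.000153), and CHAF1B had -0.54 ± 0.089 (0.00123). Each of the 2 calls was lost in 5 of 9 fits that left out 1 sample, for HELLS those without 12 h replicate 1 or 2 or any 24 h sample and for UHRF1 those without any 12 h sample or 24 h replicate 2 or 3, with adjusted p-values up to 0.00234 for HELLS and 0.0023 for UHRF1. CHAF1B was called without DMSO replicate 2 (adjusted p = 6.6e-06). SUV39H1 was the only member with a value above 0 there, 0.22 ± 0.10 (0.166).

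In LNCaP, 0 of 10 members differed between 24 h and 12 h, as did 0% of all genes. An unadjusted p-value under 0.05 was found for 837 of 13156 genes, and among the members for CHAF1B and SUV39H1. Their log2 differences were -0.60 ± 0.23 and -0.83 ± 0.36 (adjusted p = 0.643 for both), and without the 12 h replicate 2 they were -0.29 ± 0.13 and -0.20 ± 0.16. That of UHRF1 was -0.20 ± 0.35 with it and 0.39 ± 0.18 without it (adjusted p = 0.452). Voom with sample quality weights called 1 member in LNCaP and 1 in PC-3, with the share of all genes it called not given here.

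Whether the responses differed between lines was tested as the log2 fold change of 1 line minus that of another, in a joint fit of 26 samples over the 11736 genes tested among those that the 3 tables share by name. ASF1B is not among them, and the threshold was an adjusted p-value under 0.05. At 12 h, 3 of 9 members differed between PC-3 and CT1258, where 30.1% of genes did, 3 between LNCaP and CT1258 (40.2%) and 1 between PC-3 and LNCaP (19.6%). At 24 h, 3 of 9 differed between PC-3 and CT1258 (21.2%), 2 between LNCaP and CT1258 (21.1%) and 0 between PC-3 and LNCaP (9.7%). In that last comparison no member had an unadjusted p-value under 0.05, beside 2758 of 11736 genes, and voom with sample quality weights called 1. The 3 of 9 at 24 h is above the share over all genes and the other counts are near or below it, and nothing about the group is read from them.

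DNMT1 differed from CT1258 in both human lines at both times. Its response was larger in PC-3 than in CT1258 by 0.73 ± 0.18 at 12 h (adjusted p = 0.00313) and 0.81 ± 0.18 at 24 h (0.00202). It was larger in LNCaP than in CT1258 by 1.15 ± 0.17 (1.92e-05) and 0.95 ± 0.17 (0.000391), and by 1.07 ± 0.15 (4.51e-06) and 0.94 ± 0.15 (1.44e-05) without the LNCaP PDA-66 12 h replicate 2. None of the 26 fits that left out 1 sample lost a call of these 4.

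HELLS went the other way at 12 h, with a response smaller than in CT1258 by -0.99 ± 0.30 in PC-3 (adjusted p = 0.0146) and -1.07 ± 0.29 in LNCaP (0.00471, and -0.87 ± 0.24, 0.00473, without that library). The PC-3 difference was lost without PC-3 DMSO replicate 3 (adjusted p = 0.0928). SUV39H1 responded more in LNCaP at 12 h, by 1.52 over PC-3 (PC-3 minus LNCaP -1.52 ± 0.35, adjusted p = 0.00346) and by 1.35 ± 0.33 over CT1258 (0.00263), and without the 12 h replicate 2 by smaller amounts, -0.94 ± 0.18 (0.000357) and 0.75 ± 0.18 (0.00133). At 24 h the PC-3 minus LNCaP difference of SUV39H1 was -0.65 ± 0.35 (0.273) with all samples, and -0.66 ± 0.18 (0.00757, called) without that library. In the fit without it, 2 of 9 members differed at 24 h, SUV39H1 and CHAF1B (0.44 ± 0.15, 0.0293), beside 22.8% of genes.

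SUV39H2 had a smaller response in PC-3 than in CT1258, by -0.69 ± 0.24 at 12 h (adjusted p = 0.0332) and -0.68 ± 0.24 at 24 h (0.0485), but these calls were lost in 9 and 21 of 26 fits that left out 1 sample, with adjusted p-values up to 0.0969 and 0.126. At 24 h, CHAF1B responded more in PC-3 than in CT1258, by 0.87 ± 0.23 (0.00843). UHRF1 responded more in LNCaP than in CT1258, by 1.10 ± 0.32 (0.0171), a call lost without LNCaP DMSO replicate 3 (0.0524) and standing at 1.09 ± 0.18 (2.28e-05) without the 12 h replicate 2. Between PC-3 and CT1258 at 24 h, UHRF1 was called when any 1 of the 3 LNCaP 12 h replicates was left out (0.85 ± 0.18, 0.000591 without replicate 2). For EZH2, CHAF1A and ATAD2 no difference between lines was called with all samples. CHAF1A was called for LNCaP minus CT1258 at 24 h without the LNCaP 12 h replicate 2 (0.48 ± 0.16, 0.0199). At 12 h it was called for LNCaP against both other lines in 3 fits each, those without LNCaP DMSO replicate 1 or LNCaP 12 h replicate 1 or 3. For LNCaP minus CT1258 it was 0.82 ± 0.36 (0.0742) with the 12 h replicate 2 and 0.10 ± 0.17 (0.745) without it. For PC-3 minus LNCaP it was -0.94 ± 0.38 (0.0838) with and -0.24 ± 0.18 (0.363) without that library. CHAF1B was called for LNCaP against CT1258 at 12 h in 12 of 26 fits that left out 1 sample, and DNMT1 for PC-3 against LNCaP at 12 h in 3. That CHAF1B difference was 0.46 ± 0.21 (0.0921) with and 0.16 ± 0.14 (0.413) without the LNCaP 12 h replicate 2. The DNMT1 difference was -0.42 ± 0.18 (0.0975) with and -0.35 ± 0.16 (0.114) without it. At 24 h, CHAF1B was called without that library for LNCaP minus CT1258 (0.42 ± 0.14, 0.0184) and for PC-3 minus LNCaP (0.44 ± 0.15, 0.0293). With all samples neither was called (0.177 and 0.24). ATAD2 was called without the LNCaP 12 h replicate 2 at 12 h, with -0.62 ± 0.21 for PC-3 minus LNCaP (0.0296) and -0.68 ± 0.20 for PC-3 minus CT1258 (0.00695).

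Other genes of these pathways were taken from lists written from general knowledge, and how their shares differ from that of the members was not tested. Of 18 other DNA methylation factors (de novo methyltransferases, TET enzymes, methyl-CpG readers and others), 0 were called higher and 1 lower in PC-3 at 12 h, TET1, a dioxygenase that oxidizes 5-methylcytosine (log2 fold change -1.18 ± 0.21, adjusted p = 0.000405), and 0 in either direction at 24 h. The median was 0.07 and -0.02. In CT1258, 2 of 17 rose and 2 fell at 12 h: the glycosylases TDG (0.74 ± 0.083) and MBD4 (0.72 ± 0.10), and the stress gene GADD45A (-1.74 ± 0.14) and the reader MBD1 (-0.85 ± 0.14). Among 15 other H3K9 methylation and HP1 factors, 0 rose and 3 fell in PC-3 at 12 h, with the demethylases KDM4C (-0.94 ± 0.15) and KDM4B (-0.93 ± 0.15) lowest. In CT1258, 4 of 14 rose and 6 fell, led by the HP1 protein CBX3 (1.65 ± 0.087) and the HUSH subunit FAM208A (1.51 ± 0.098), and by KDM4B (-1.12 ± 0.087) and the methyltransferase EHMT2 (-0.67 ± 0.10).

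Of 12 other Polycomb repressive complex 2 factors, 0 rose and 2 fell in PC-3 at 12 h, EZH1, the paralog of EZH2 (-0.67 ± 0.13), and the H3K27 demethylase KDM6B (-0.65 ± 0.11). In CT1258 4 rose and 2 fell, with the core subunits RBBP4 (2.20 ± 0.10) and SUZ12 (1.63 ± 0.10) highest and KDM6B (-1.48 ± 0.10) and EZH1 (-1.18 ± 0.24) lowest. RBBP4 is also the small subunit of chromatin assembly factor 1. EZH2 and EZH1 thus had opposite signs in both lines, called in each at 12 h.

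Of the histone chaperones other than the members, 9 of 20 rose and 1 fell in PC-3 at 12 h, and 6 of 19 rose and 3 fell in CT1258. MMS22L, which acts at broken or stalled forks, had the largest rise of these in both (1.66 ± 0.15 and 1.75 ± 0.14), followed by CDAN1, a partner of ASF1 (0.76 ± 0.13), in PC-3 and the centromere chaperone HJURP (1.43 ± 0.095) in CT1258. ATRX fell in PC-3 (-1.04 ± 0.12), and the importin IPO4 (-1.18 ± 0.085) and the FACT subunit SSRP1 (-0.53 ± 0.087) fell in CT1258. Of 11 other chromatin remodellers, 3 rose in PC-3, led by CHD4 (0.73 ± 0.15) and BAZ1B (0.62 ± 0.088). In CT1258 6 rose, led by ATAD2B, the paralog of ATAD2 (1.04 ± 0.12), and CHD1 (0.83 ± 0.11), and 2 fell, INO80 (-0.45 ± 0.082) and SMARCA4 (-0.38 ± 0.079). In LNCaP no gene of these lists was called, and the medians at 12 h were 0.15 for the other DNA methylation factors, 0.09 for the H3K9 factors, -0.01 for the Polycomb factors, 0.72 for the chaperones and 0.31 for the remodellers. Without the 12 h replicate 2 these medians were 0.12, 0.09, -0.01, 0.30 and 0.32, and 2 chaperones rose and 1 DNA methylation factor fell.

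PCNA, the sliding clamp that many of these factors bind, and the DNA ligase LIG1 were looked at together. At 12 h LIG1 rose in PC-3 (log2 fold change 0.61 ± 0.10, adjusted p = 0.000259) where PCNA had 0.27 ± 0.13 (0.0857), while PCNA rose in CT1258 (0.93 ± 0.096, 1.44e-06) where LIG1 had -0.10 ± 0.12 (0.46). PCNA then fell by 0.66 ± 0.097 between 12 h and 24 h in CT1258 (0.000585), as HELLS and UHRF1 did. At 24 h in PC-3 the values were 0.36 ± 0.13 for PCNA (0.0309) and 0.52 ± 0.10 for LIG1 (0.0011). In LNCaP the 12 h values were 1.01 ± 0.27 for PCNA (0.0446) and 1.87 ± 0.41 for LIG1 (0.0239), and 1.2 ± 0.22 (0.00351) and 1.21 ± 0.21 (0.00252) without the 12 h replicate 2. The difference between PCNA and LIG1 was not tested.

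Many genes of S phase rose as well. The S phase list of the Seurat package holds 4 of the members (UHRF1, HELLS, ATAD2 and CHAF1B), which were taken out, and of the remaining 39 genes 22 rose in PC-3 at 12 h and 24 at 24 h, 0 fell, and the median log2 fold changes were 0.80 and 0.87. In CT1258, 24 of 35 rose at 12 h (median 0.93) and 18 rose and 1 fell at 24 h (median 0.56). In LNCaP the medians were 0.94 and 1.00, with 0 genes called at 0.001 and 24 and 17 at an adjusted p-value under 0.05. Without the 12 h replicate 2 they were 1.14 and 1.00, with 12 and 8 genes called at 0.001. Cyclin E2 (CCNE2, 1.70 ± 0.24) and the ribonucleotide reductase subunit RRM2 (1.58 ± 0.14) were highest in PC-3 at 12 h, and E2F8 (1.98 ± 0.14) and the exonuclease EXO1 (1.81 ± 0.094) in CT1258. The summed level of the list was 2384 to 2390 CPM in PC-3 DMSO samples and 3808 to 4668 CPM in treated samples at 24 h, and the share of the change in the members that goes with it was not tested.

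Many genes of G2 and M phase rose too. Of 48 tested in CT1258, 37 rose and 1 fell at 12 h (median 1.26), and 43 rose at 24 h (median 1.65). Between the times 8 rose and 1 fell in that line. HMMR (3.30 ± 0.15) and the spindle motor KIF11 (2.36 ± 0.090) were highest in CT1258 at 12 h, and the condensin subunit NCAPD2 (-0.38 ± 0.073) fell. In PC-3, 15 of 54 rose and 1 fell at each time (medians 0.42 and 0.48), with ANLN (1.54 ± 0.094) and CDCA2 (1.46 ± 0.11) highest and the tubulin TUBB4B (-1.25 ± 0.10) lowest at 12 h. In LNCaP the medians were 1.28 and 1.10, and 1.41 and 1.10 without the 12 h replicate 2.

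**Figure D4:**
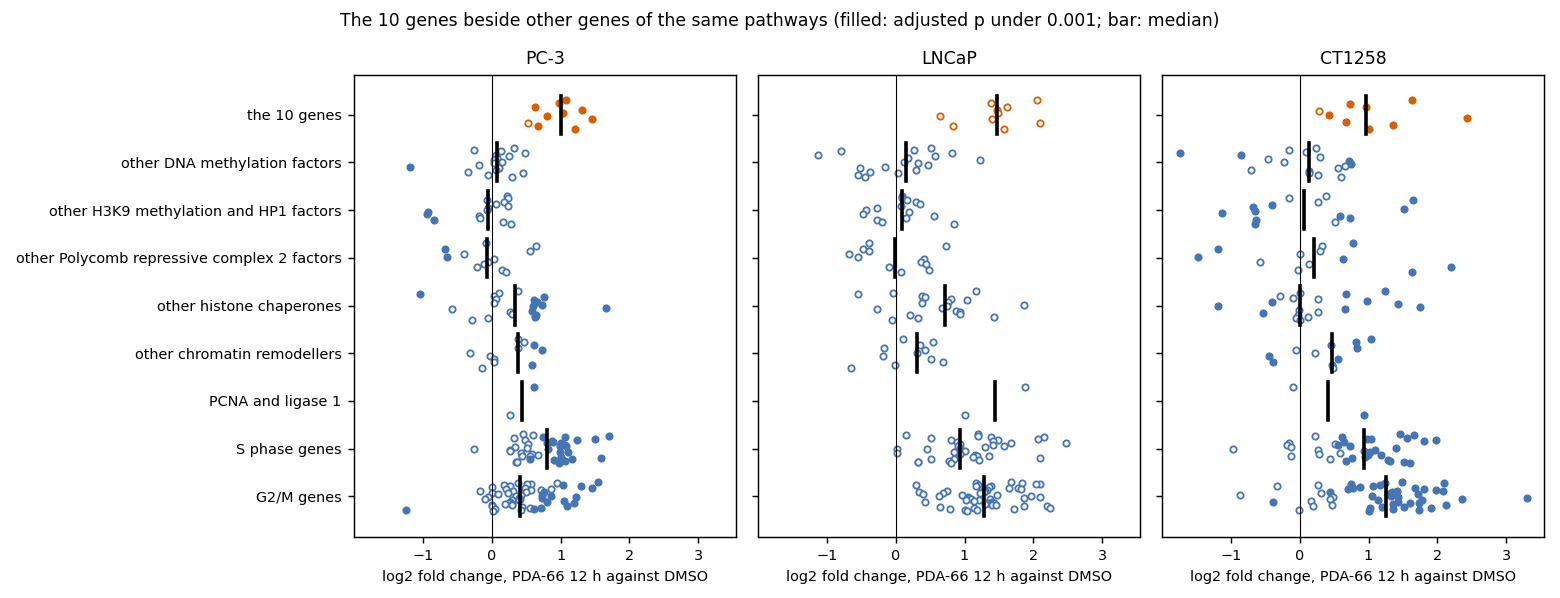
Log2 fold change at 12 h (x axis) of each tested gene of the members and of 8 other lists, in PC-3, LNCaP and CT1258, with the median of each list as a bar and filled points for an adjusted p-value under 0.001. The medians of the members are 1.00, 1.48 and 0.96, those of the S phase genes 0.80, 0.94 and 0.93, those of the G2/M genes 0.42, 1.28 and 1.26, and those of the other DNA methylation factors are between 0.07 and 0.15.

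The genes most like the group were looked for by the Pearson correlation with the mean of 9 members, in log2 CPM centred within each line over 26 samples and 8265 genes tested in all lines. They were CLSPN, a mediator of the replication checkpoint (r = 0.992), the origin recognition subunits ORC6 (0.973) and ORC1 (0.966), the cyclin-dependent kinase CDK2 (0.968) and the GINS subunit GINS4 (0.962). The samples share their libraries and treatment, so these are descriptions with no test. At 12 h and 24 h the log2 fold changes of CLSPN were 1.5 and 1.35 (PC-3), 2.07 and 1.74 (LNCaP), and 1.56 and 1.10 (CT1258), and without the 12 h replicate 2 that of LNCaP at 12 h was 2.00. The members themselves correlated with the mean of the others between 0.779 (EZH2) and 0.932 (CHAF1B).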

How the data were processed

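Poly(A) RNA of PC-3, LNCaP and CT1258 was sequenced as single reads. The authors deposited a table of raw read counts per gene for each line, and their tools were STAR 2.3.1s, BWA and edgeR 3.14.0 per the submitters' processing notes, with builds hg19 and CanFam3.1. The study's methods give STAR for the human lines and BWA for CT1258. Strand use in counting is not given in the sources used here. Of 27 samples, 26 had counts, PC-3 DMSO replicate 1 being not analysed here, and the labels do not tell which of 2 PC-3 12 h columns belongs to which replicate.

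Genes were filtered with filterByExpr, scaled by TMM and tested with the quasi-likelihood F test of edgeR 4.0.16 (R 4.3.3), with Benjamini-Hochberg adjustment over all genes tested and a threshold of 0.001 (0.05 for differences in response). Each line was fitted with its 3 groups, the controls with both human lines, and differences in response with all 26 samples. The SE is the log2 fold change divided by the square root of F. CPM are counts scaled to a common library size after TMM. Positions and transcript lengths came from GENCODE 44 lifted to GRCh37.

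The members and lists were chosen with earlier results of these data known. All 10 members are named, and of each other list the 2 genes with the largest rise and fall past the threshold at 12 h in PC-3 and CT1258, PCNA and LIG1, the markers, and the 5 genes most alike. Some markers are not reported here. The fits were tested on simulated data with 200 changed genes. At a log2 change of 1 they recovered 188 (PC-3), 0 (LNCaP) and 196 (CT1258) (of 13611, 13023 and 9824 genes), and at a log2 change of 2 they recovered 200, 148 and 200. Alternatives were DESeq2 1.42.0 (size factors and Wald test), library size only, no filter, at least 1 CPM in 3 samples, the likelihood ratio and exact tests of edgeR, limma 3.58.1 voom with sample quality weights, a replicate block, CT1258 controls thinned to the depth of treated samples, another threshold, and leaving out each sample.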

Additional observations from a re-analysis of the deposited data

Results flagged for a closer look

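The results below were singled out because the log2 fold change of a member differed between cell lines by a test of the difference itself, the interaction term of the joint edgeR fit, at an adjusted p-value under 0.05. At 12 h the SUV39H1 response differed by -1.52 (PC-3 minus LNCaP) and 1.35 (LNCaP minus CT1258). The DNMT1 response differed by 0.73 (PC-3 minus CT1258) and 1.15 (LNCaP minus CT1258) at 12 h, and by 0.81 and 0.95 at 24 h. For HELLS the differences at 12 h were -0.99 (PC-3 minus CT1258) and -1.07 (LNCaP minus CT1258), and for SUV39H2 (PC-3 minus CT1258) they were -0.69 at 12 h and -0.68 at 24 h. CHAF1B differed by 0.87 (PC-3 minus CT1258) and UHRF1 by 1.10 (LNCaP minus CT1258) at 24 h. The culture medium differs with the line, and the species and the read aligner between CT1258 and the human lines. None of these can be told apart from the line. In CT1258 the depth also differed between DMSO and PDA-66 samples.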

How the results depend on the processing

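No called member value changed sign under any alternative, among 3854 fold changes, of which 131 lost and 170 gained a call and 81 changed sign while called in neither fit. The LNCaP counts of 0 moved most. At 12 h and 24 h they were 9 and 5 at an adjusted p-value under 0.05, 7 and 4 by the DESeq2 Wald test and by the likelihood ratio test, 10 and 9 by voom with quality weights, and 4 and 9 by the exact test. Between 24 h and 12 h, voom called 1 member for PC-3, 1 for LNCaP and 5 for CT1258. For differences in response, a threshold of 0.001 left 0 (PC-3 against LNCaP), 0 (PC-3 against CT1258) and 1 (LNCaP against CT1258) at 12 h, and 0 (PC-3 against CT1258) and 1 (LNCaP against CT1258) at 24 h. PC-3 against LNCaP gave 2 by DESeq2 and 3 by voom at 12 h, and 1 by voom at 24 h. LNCaP against CT1258 gave 5 without a filter at 12 h and 4 by voom at 24 h. With only the 2 lines compared, an alternative chosen after seeing the data, PC-3 against LNCaP gave 2 at 12 h, and PC-3 against CT1258 gave 6 and LNCaP against CT1258 1 at 24 h. Apart from the 9 and 5 calls in LNCaP, the shares of all genes called by these alternatives are not given here. Their counts of members thus have no background beside them, and the cause of the changes was not tested.

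Leaving out 1 sample gave 8 to 10 calls in PC-3 at 12 h, 7 to 9 at 24 h and 0 to 0 between the times. The ranges were 0 to 7, 0 to 4 and 0 to 0 in LNCaP, and 7 to 9, 4 to 6 and 0 to 3 in CT1258. Differences in response ranged at 12 h from 1 to 3 (PC-3 against LNCaP), 1 to 4 (PC-3 against CT1258) and 3 to 7 (LNCaP against CT1258), at 24 h from 0 to 2, 2 to 4 and 1 to 4, and the controls from 1 to 5. Where 1 PC-3 DMSO sample remained, it was assumed to vary like the other groups. Leaving out the LNCaP PDA-66 12 h replicate 2 gave the highest counts of 7 and 4 in LNCaP, beside 1.21% and 0.405% of genes called higher. It also gave the highest count of 5 in the controls, beside 56.9% of genes. With all samples these shares were 0%, 0% and 40.8%. For most other fits the share of all genes is not given here, so the ranges have no background beside them.

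Whether replicate numbers pair the samples was looked at by correlating deviations from the group mean, which cannot exclude a pairing in groups this small. For the PC-3 12 h columns of unknown replicate, the number was read from the column name. Same-numbered samples had correlations of deviations of -0.189 to 0.153 in CT1258, -0.42 to 0.185 in LNCaP and -0.114 to 0.201 in PC-3, and 2 of 9, 0 of 9 and 2 of 8 samples correlated best with their own number. A replicate block cannot be used for the controls of the human lines. Blocks are numbered within each line, so that contrast depends on which block serves as the reference, and no count is read from it. The CT1258 PDA-66 samples had the lowest depth, and with controls thinned to it the 24 h calls of CHAF1A and CHAF1B were lost.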
